A study of Mus musculus with 2 samples.

Results

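Xcr1, Clec9a, Batf3, Irf8, Cd8a, Id2, Zbtb46, Wdfy4, Naaa and Dnase1l3 are genes known for the cross-presenting dendritic cell. These 10 genes were followed among the 31053 genes counted in blood stem and progenitor cells of tumour-bearing mice. They were chosen by name as genes of that cell type, with earlier results of these data known, and all 10 were found in the count tables. The cells were LSK cells (little or no lineage marker, with Sca1 and high c-Kit) sorted from the spleen and from the bone marrow of C57BL/6 mice. The mice were 6 to 8 weeks old when 750000 Hepa1-6 cells, a mouse hepatoma line, were injected into the left liver lobe in 25 µl of medium with 50% basement membrane extract. Both tissues came from tumour-bearing mice, and mice without a tumour were not analysed here. Each tissue gave 1 library of the Chromium 3′ assay, which counts unique molecular identifiers (UMIs) from transcript 3′ ends, and the number of mice behind each is not stated. Before the sort, cells were enriched on magnetic beads by lineage depletion or by c-Kit, and which step served which tissue is not stated, so tissue, library and enrichment cannot be told apart.

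In total 85937174 UMIs came from 6546 spleen cells, whose median depth was 9978 UMIs, and 73740963 UMIs from 10088 bone marrow cells, whose median depth was 5991 UMIs. A set of 16 cell barcodes occurred in both libraries. With 1 library per tissue there is no replicate spread and no test: levels are UMIs scaled to CPM, the usual unit of relative abundance, over summed cells, every interval is a 95% one for counting error only, and a gene is called higher or lower from 2-fold upwards. The authors' table placed each cell in 1 of 8 clusters (MP, DCP, HSC-1, HSC-2, HSC-3, LP, MCP and MEP), and these names are used as given. The clusters were made from the same cells, so levels by cluster are descriptions. Doublets were left in.

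Conventional dendritic cells of type 1, or cDC1, take up material from dying cells and display its peptides on MHC class I, a route called cross-presentation that primes CD8-positive T cells against tumours and viruses. In the mouse, IRF8 and BATF3 are needed to form them, ID2 holds back the competing plasmacytoid programme, and ZBTB46 marks the conventional dendritic lineage. The finished cell carries the chemokine receptor XCR1, the dead-cell receptor CLEC9A and, in the spleen, CD8A. The spleen is a main home of resident cDC1, and mature cDC1 are not usually counted among stem and progenitor cells.

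Because BATF3 acts with IRF8 on composite AP-1-IRF sites and IRF8 also acts with PU.1 on ETS-IRF sites, the promoters were searched for these letters. RefSeq promoter windows (GRCm38.p6, 250 bases before to 50 after the start of transcription) were matched by symbol for 9 of the 10 genes, and Irf8 has a second window. The 250 bases before the start are shown for Xcr1 and Clec9a, the surface genes used further on to split cells, and for Cd8a and Zbtb46, the only members whose windows held an AP-1, AP-1-IRF or ETS-IRF match. The Xcr1 sequence is chr9:123862030-123862279 on the minus strand and the Clec9a sequence is chr6:129408612-129408861 on the plus strand. The Cd8a sequence is chr6:71373177-71373426 on the plus strand and the Zbtb46 sequence is chr2:181424389-181424638 on the minus strand, at a start inside the annotated gene. Letters run 5′ to 3′ along the strand of the gene, and capitals mark the AP-1-IRF and ETS-IRF matches.
Xcr1: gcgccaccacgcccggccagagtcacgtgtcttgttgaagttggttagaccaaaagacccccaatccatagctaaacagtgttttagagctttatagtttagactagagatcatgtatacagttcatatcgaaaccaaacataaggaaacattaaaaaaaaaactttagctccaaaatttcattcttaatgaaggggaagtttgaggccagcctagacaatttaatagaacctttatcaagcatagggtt
Clec9a: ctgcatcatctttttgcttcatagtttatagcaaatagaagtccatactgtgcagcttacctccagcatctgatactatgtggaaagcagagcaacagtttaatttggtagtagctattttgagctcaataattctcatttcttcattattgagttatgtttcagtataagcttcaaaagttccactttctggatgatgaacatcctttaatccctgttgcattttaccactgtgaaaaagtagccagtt
Cd8a: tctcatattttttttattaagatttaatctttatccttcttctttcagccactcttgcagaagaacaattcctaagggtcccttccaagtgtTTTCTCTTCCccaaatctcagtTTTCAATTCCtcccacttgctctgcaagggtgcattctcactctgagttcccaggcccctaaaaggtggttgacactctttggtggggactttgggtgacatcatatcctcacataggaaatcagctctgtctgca
Zbtb46: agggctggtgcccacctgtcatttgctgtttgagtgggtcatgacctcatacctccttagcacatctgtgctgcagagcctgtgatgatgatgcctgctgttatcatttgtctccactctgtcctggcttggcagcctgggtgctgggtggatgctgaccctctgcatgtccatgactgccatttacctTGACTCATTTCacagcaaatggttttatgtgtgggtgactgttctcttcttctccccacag

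In the motifs N is any base, and both strands were read. The AP-1-IRF motif, GAAA joined directly to the AP-1 motif TGANTCA, stood in 0.125% of all 32851 windows and in the Zbtb46 window alone among the members, as TGACTCATTTC from position -61, counted from the start. TGANTCA by itself, which lies within that match, was in 7.81% of windows and again in that of Zbtb46. The ETS-IRF motif, GGAA and GAAA with NN between them, was in 2.72% of windows and occurred in that of Cd8a, as TTTCTCTTCC from -158 and TTTCAATTCC from -136. The IRF dimer motif, GAAA repeated with NN between, was in 3.44% of windows, the spaced composite of TTTC, NNNN and TGANTCA in 0.119%, and both were in 0 of the 10 member windows. The E-box CAGNTG was in 6 of the 10 member windows against 51.4% of all windows. A match of letters is a description of the window and not a bound site, and its absence says nothing of the factor.

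Over whole libraries, every gene of the set was at a higher level in spleen LSK cells than in bone marrow LSK cells. All 10 were at least 2-fold higher in spleen. Of the 8644 genes whose mean reached 10 CPM, 4.15% were 2-fold higher and 6.55% were 2-fold lower in spleen, and 9 of the 9 members that reached this mean were higher. Batf3, Xcr1, Clec9a, Cd8a, Naaa and Dnase1l3 stood under 10 CPM in bone marrow and reached this mean only through spleen. For them the limit itself required a higher level in spleen, so the count of 9 is a description. The median log2 ratio of the 10 members, computed on CPM + 1, was 4.09, against -0.11 over all those genes. With the clusters weighted alike in both libraries, 6 of the 10 were at least 2-fold higher, without Irf8, Zbtb46, Wdfy4 and Naaa. Without the cells in which 4 or more of the genes were detected, 8 were, and the log2 ratio of Irf8 turned to -0.33 and that of Wdfy4 to -0.79.

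Among the regulators, Irf8 (ENSMUSG00000041515, chr8:120736358-120756694, mm10), the interferon regulatory factor needed for cDC1, stood at 346 CPM in spleen and 54.5 CPM in bone marrow, a ratio of 6.35 (6.14 to 6.56). Batf3 (ENSMUSG00000026630, chr1:191097847-191108945), the AP-1 factor that keeps Irf8 on in cDC1, stood at 61.0 CPM in spleen and 1.55 CPM in bone marrow, a ratio of 39.5 (32.8 to 47.9). Id2 (ENSMUSG00000020644, chr12:25093799-25097140), an inhibitor of E proteins, stood at 361 CPM in spleen and 26.6 CPM in bone marrow, 13.6-fold higher (13 to 14.2). Of these regulators Batf3 was nearly silent in bone marrow, with 114 UMIs in the whole library, whereas Irf8 had 4016. Zbtb46 (ENSMUSG00000027583, chr2:181387762-181459426), a zinc finger repressor of conventional dendritic cells, was thinly counted, at 12.3 CPM in spleen and 1.36 CPM in bone marrow (ratio 9.05, 7.37 to 11.2), and its mean over both libraries was under the 10 CPM limit.

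The surface genes were nearly silent in bone marrow. Xcr1 (ENSMUSG00000060509, chr9:123852315-123862029), the receptor for the T cell and NK cell chemokine XCL1, stood at 77.7 CPM in spleen and 2.54 CPM in bone marrow, a ratio of 30.7 (26.5 to 35.6). Clec9a (ENSMUSG00000046080, chr6:129408862-129424763), a lectin that binds actin exposed by dead cells, stood at 68.3 CPM in spleen and 2.14 CPM in bone marrow, a ratio of 31.9 (27.2 to 37.6). Cd8a (ENSMUSG00000053977, chr6:71373427-71379173), a chain of the CD8 co-receptor that splenic cDC1 carry as a homodimer, had 3210 UMIs (37.4 CPM) in spleen and 20 UMIs (0.271 CPM) in bone marrow, a ratio of 138 (89.0 to 226). The interval of Cd8a is the widest of the set, and its ratio and that of Dnase1l3 were the highest.

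Wdfy4, Naaa and Dnase1l3 encode proteins of the endosome, the lysosome and the secreted space. Wdfy4 (ENSMUSG00000051506, chr14:32959547-33185508), a BEACH-domain protein needed to cross-present cell-bound antigen, was the member that differed least, with 147 CPM in spleen and 69.1 CPM in bone marrow, a ratio of 2.12 (2.06 to 2.19). Naaa (ENSMUSG00000029413, chr5:92257659-92278170), a lysosomal amidase of fatty acid ethanolamides, stood at 114 CPM in spleen and 8.90 CPM in bone marrow, 12.9-fold higher (11.9 to 13.9). Dnase1l3 (ENSMUSG00000025279, chr14:7964533-7994573), a secreted nuclease that degrades DNA of dead cells, stood at 117 CPM in spleen and 0.99 CPM (73 UMIs) in bone marrow, a ratio of 118 (94.1 to 151). Thus Wdfy4 had 5095 UMIs in the bone marrow library, where Dnase1l3 was almost absent.

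**Figure D1:**
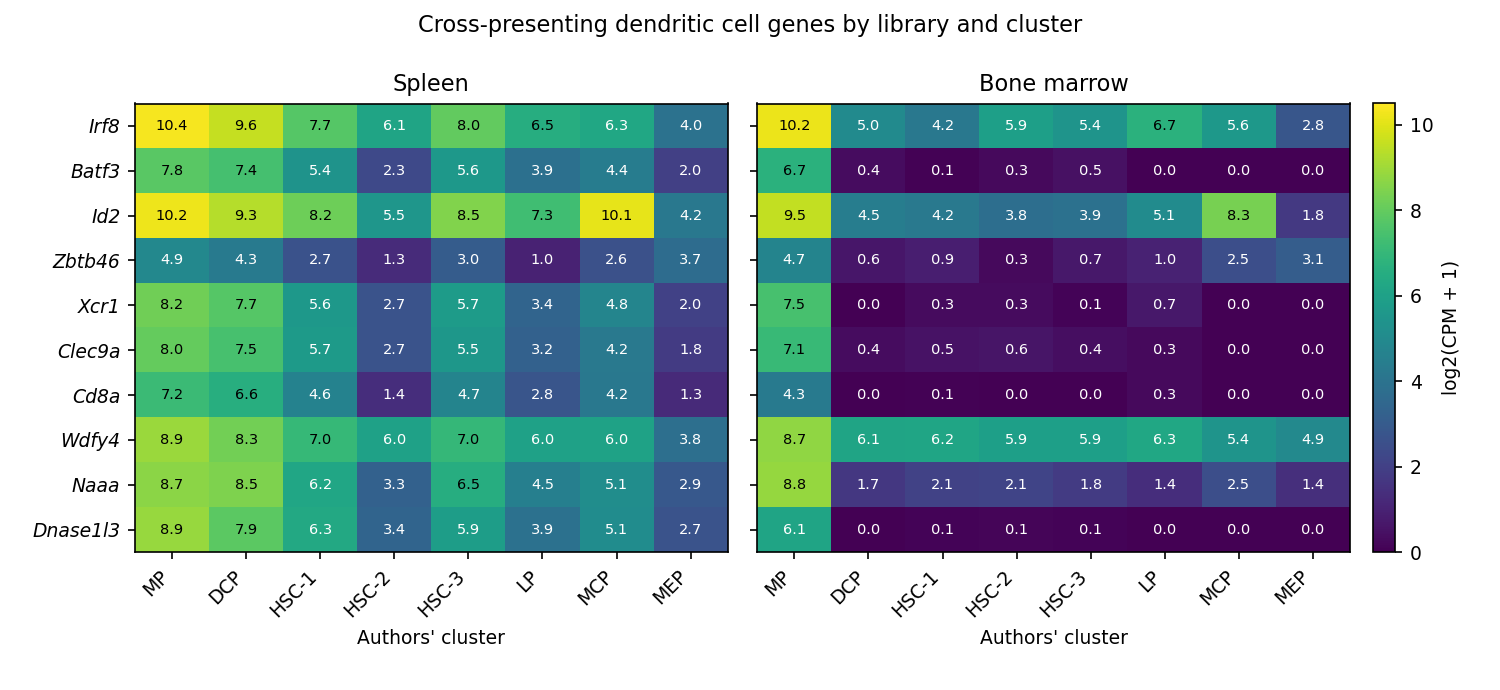
Level of the 10 genes, as log2(CPM + 1), in each of the 8 clusters of the spleen library (left) and the bone marrow library (right), with the value printed in each cell. In spleen the MP column is the brightest for every gene and DCP follows for all but Id2, while in bone marrow Batf3, Xcr1, Clec9a, Cd8a and Dnase1l3 stand near 0 outside MP.

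In the spleen the genes were concentrated in the MP cluster, which held 1413 cells, 21.6% of the library, against 118 cells or 1.17% of the bone marrow library. All 10 were at their highest in MP among the 8 spleen clusters, as were 9.56% of 8346 genes. General dendritic cell genes were high there too: Cd74, the MHC class II invariant chain, stood at 19966 CPM in spleen MP and 8073 CPM in bone marrow MP, and Flt3, Itgax, Ciita and the MHC class II genes were likewise highest in MP among the spleen clusters. MP held 18.0% of the spleen UMIs, but 72.6% of those of Dnase1l3, 68.7% of Cd8a, 68.3% of Irf8, 68.2% of Xcr1, 67.3% of Clec9a and 65.3% of Batf3. The share was 63.4% for Naaa, 60.6% for Id2, 58.7% for Wdfy4 and 42.9% for Zbtb46. Levels in MP were 12.1 times those of the other spleen cells together for Dnase1l3 (11.5 to 12.6), the widest gap, and 3.43 times for Zbtb46 (3.03 to 3.88), the narrowest.

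Below MP the spleen clusters fell into an order that most members shared. Xcr1 stood at 295 CPM in MP (286 to 303), 209 in DCP (196 to 222), 52.6 in HSC-3 (47.3 to 58.3), 47.6 in HSC-1 (43.6 to 51.9), 26.1 in MCP (18.7 to 35.4), 9.31 in LP (7.02 to 12.1), 5.52 in HSC-2 (4.08 to 7.29) and 3.10 in MEP (2.52 to 3.78). The intervals of HSC-3 and HSC-1 overlap, as do those of LP and HSC-2, and the other neighbours in this order are apart. Clec9a stood at 255 CPM in MP (248 to 263), 175 in DCP (163 to 187), 51.3 in HSC-1 (47.1 to 55.7), 45.7 in HSC-3 (40.7 to 51.1), 17.8 in MCP (11.9 to 25.8), 8.47 in LP (6.28 to 11.2), 5.52 in HSC-2 (4.08 to 7.29) and 2.50 in MEP (1.98 to 3.11). The same pairs overlap, with HSC-1 and HSC-3 in the other order. Batf3 stood at 221 CPM in MP (214 to 229), 166 in DCP (155 to 178), 48.0 in HSC-3, 41.3 in HSC-1, 20.4 in MCP, 13.7 in LP, 4.05 in HSC-2 and 2.94 in MEP. Its intervals overlap for HSC-3 and HSC-1, for MCP and LP, and for HSC-2 and MEP.

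Cd8a followed the same order, with 142 CPM in MP (137 to 149), 93.8 in DCP (85.3 to 103), 25.9 in HSC-3, 23.9 in HSC-1, 17.2 in MCP, 5.76 in LP, 1.58 in HSC-2 and 1.39 in MEP, where the intervals of HSC-3, HSC-1 and MCP overlap, as do those of HSC-2 and MEP. Dnase1l3 fell off more steeply after MP, at 473 CPM there (462 to 484), 233 in DCP (219 to 247), 79.5 in HSC-1, 57.1 in HSC-3, 33.8 in MCP, 14.2 in LP, 9.34 in HSC-2 and 5.37 in MEP. Naaa fell off less between the first clusters, at 403 CPM in MP (393 to 413) and 357 in DCP (340.2 to 374), then 91.7 in HSC-3, 72.4 in HSC-1, 34.4 in MCP, 22.0 in LP, 8.67 in HSC-2 and 6.51 in MEP. DCP levels were thus 88.6% of MP levels for Naaa, against 49.2% for Dnase1l3, and between 52.4% and 75.2% for the other 8 members.

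The more widely used members kept a level elsewhere. Irf8 stood at 1311 CPM in MP (1293 to 1329), 767 in DCP, 254 in HSC-3, 209 in HSC-1, 91.1 in LP, 75.8 in MCP, 69.5 in HSC-2 and 14.6 in MEP. Wdfy4 stood at 478 CPM in MP (468 to 489.5), 309 in DCP, 129.7 in HSC-1, 126 in HSC-3, 65 in MCP, 64.2 in HSC-2, 62.5 in LP and 13.1 in MEP, with overlapping intervals from MCP through LP. Id2 had a level near that of MP in MCP: 1214 CPM in MP (1197 to 1232), 1117 in MCP (1065 to 1170.2) and 637 in DCP, and 17.3 in MEP at the low end. The mast cell genes Cpa3, Mcpt4 and Cma1 were highest in MCP among the spleen clusters, and the MCP cells were shallow, with a median of 1827 UMIs. After thinning, which left 133 MCP cells, 9 of the 10 members were highest in MP, and Id2 was higher in MCP, at 1636 CPM against 1220.1 CPM in MP. Zbtb46 stood at 29.3 CPM in MP (26.6 to 32.1), 18.7 in DCP (15 to 23) and 12 in MEP (10.8 to 13.2), where 378 UMIs were counted, and at 1.02 in LP, its lowest.

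**Figure D2:**
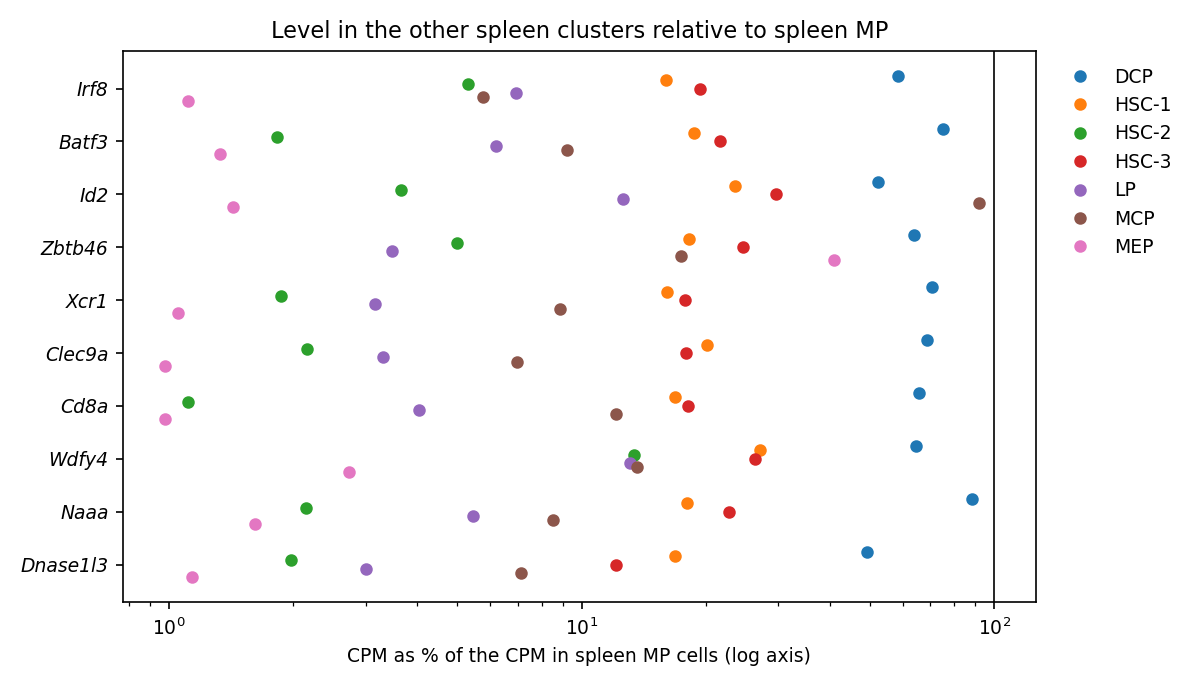
Level of each gene in the other 7 spleen clusters as a percent of its level in spleen MP, on a log axis. DCP points lie between 49.2% and 88.6%, MEP points lie near 1% for most genes, and the exceptions are Id2 in MCP at 92.0% and Zbtb46 in MEP at 40.8%.

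In the MEP cluster the erythroid genes Car1 (3129 CPM), Ermap (277 CPM) and Klf1 (133 CPM) stood at their highest in the spleen. Its CPM was between 0.976% and 1.62% of the MP level for Cd8a, Clec9a, Xcr1, Irf8, Dnase1l3, Batf3, Id2 and Naaa, which puts 8 of the members in nearly a single ratio. For Wdfy4 it was 2.73% (2.47 to 3.01). Zbtb46 stood far above these percentages, at 40.8% of its MP level (35.5 to 46.9). In bone marrow MEP it stood at 7.62 CPM (32 UMIs) while Batf3, Xcr1, Clec9a, Cd8a and Dnase1l3 had 0 UMIs there. For those 5 genes the limit that a count of 0 allows in bone marrow MEP was 0.715 CPM. The spleen MEP levels include 11 cells with 4 or more members after thinning, which held 139 of the 461 Irf8 UMIs and 28 of the 98 Xcr1 UMIs. In the 857 MEP cells with 0 or 1 member, cells that the members themselves chose, Irf8 stood at 3.42 CPM, Xcr1 at 1.02 CPM and Clec9a at 0.362 CPM, while Zbtb46 kept 11.6 CPM. The part of free RNA in the low levels outside MP was not tested.

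In bone marrow the genes were also highest in MP, though that cluster held few cells. Outside it Xcr1 had between 0 and 0.597 CPM in every cluster, Clec9a between 0 and 0.500, Batf3 between 0 and 0.379, Cd8a between 0 and 0.199 and Dnase1l3 between 0 and 0.1. Irf8 kept 103 CPM in LP and 59.4 in HSC-2, Id2 kept 324 CPM in MCP, and Wdfy4 kept 60.6 to 75.6 CPM in DCP, LP and the HSC clusters. Naaa stood at 1.59 to 4.70 CPM outside MP. The DCP cluster, the second highest in spleen for 9 of the 10 genes, was not high in bone marrow, where Xcr1, Cd8a and Dnase1l3 had 0 UMIs and Batf3 and Clec9a had 1 each. Against the limit of 0.841 CPM that 0 UMIs allow there, Xcr1 was at least 248-fold, Cd8a at least 111-fold and Dnase1l3 at least 277-fold higher in spleen DCP than in bone marrow DCP. Irf8 was 24.6-fold higher in DCP (20.4 to 30), Id2 30.3-fold (24.1 to 38.6) and Wdfy4 4.43-fold (3.87 to 5.09).

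In HSC-1, the largest cluster of both libraries (1539 spleen cells and 5049 bone marrow cells), Xcr1 was 211-fold higher in spleen (96.1 to 577, on 517 and 6 UMIs), Clec9a 124-fold (68.6 to 249), Naaa 22.6-fold (18.1 to 28.7), Id2 16.1-fold (14.6 to 17.8) and Irf8 12.2-fold (11 to 13.5). Wdfy4 was 1.81-fold higher there (1.69 to 1.95). The Xcr1 UMIs of spleen HSC-1 lay in few cells, with a UMI before thinning in 205 of the 1539 cells. The 211 cells with 4 or more members after thinning held 474 of the 517 Xcr1 UMIs, and the 1039 cells with 0 or 1 member held 7. Xcr1 is among the members that chose these cells, so this split follows in part from the choice. In HSC-2 the gaps were smaller, with Irf8 1.17-fold (1.06 to 1.29) and Wdfy4 1.06-fold (0.956 to 1.17), and the interval of Wdfy4 includes 1. In LP, Irf8 stood at 91.1 CPM in spleen and 103 CPM in bone marrow, a ratio of 0.884 (0.782 to 1.00).

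Within MP itself, every member differed less between the tissues than over whole libraries, and the ratios of Cd8a and Dnase1l3 remained the highest. Cd8a stood at 142 CPM in spleen MP and 18.3 CPM in bone marrow MP, 7.81-fold higher (4.93 to 13.2), on 2204 and 18 UMIs. Dnase1l3 stood at 473 CPM in spleen MP and 68.9 CPM in bone marrow MP, 6.86-fold higher (5.40 to 8.84). Batf3 stood at 221 CPM in spleen MP and 104 CPM in bone marrow MP, 2.12-fold higher (1.74 to 2.60), and its interval includes 2. These 3 of the 10 were at least 2-fold higher in spleen MP, where 2.61% of 8044 genes were higher and 14.4% lower by that much.

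The other members lay within 2-fold inside MP. Clec9a stood at 255 CPM in spleen MP and 133 CPM in bone marrow MP (ratio 1.92, 1.62 to 2.31), and Xcr1 at 295 and 174 CPM in spleen and bone marrow MP (1.69, 1.45 to 1.98). Id2 stood at 1214 CPM in spleen MP and 736 CPM in bone marrow MP. Irf8 stood at 1311 CPM in spleen MP and 1162 CPM in bone marrow MP (1.13, 1.06 to 1.20), and Wdfy4 at 478 and 427 CPM (1.12, 1.02 to 1.24). Zbtb46 stood at 29.3 CPM in spleen MP and 25.3 CPM in bone marrow MP, on 25 bone marrow UMIs, and its ratio of 1.16 (0.772 to 1.80) does not separate the tissues. Naaa was the member on the other side, at 403 CPM in spleen MP and 452 CPM in bone marrow MP, a ratio of 0.891 (0.809 to 0.983). The median log2 ratio of the members in MP was 0.74, against -0.25 over all genes tested.

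**Figure D3:**
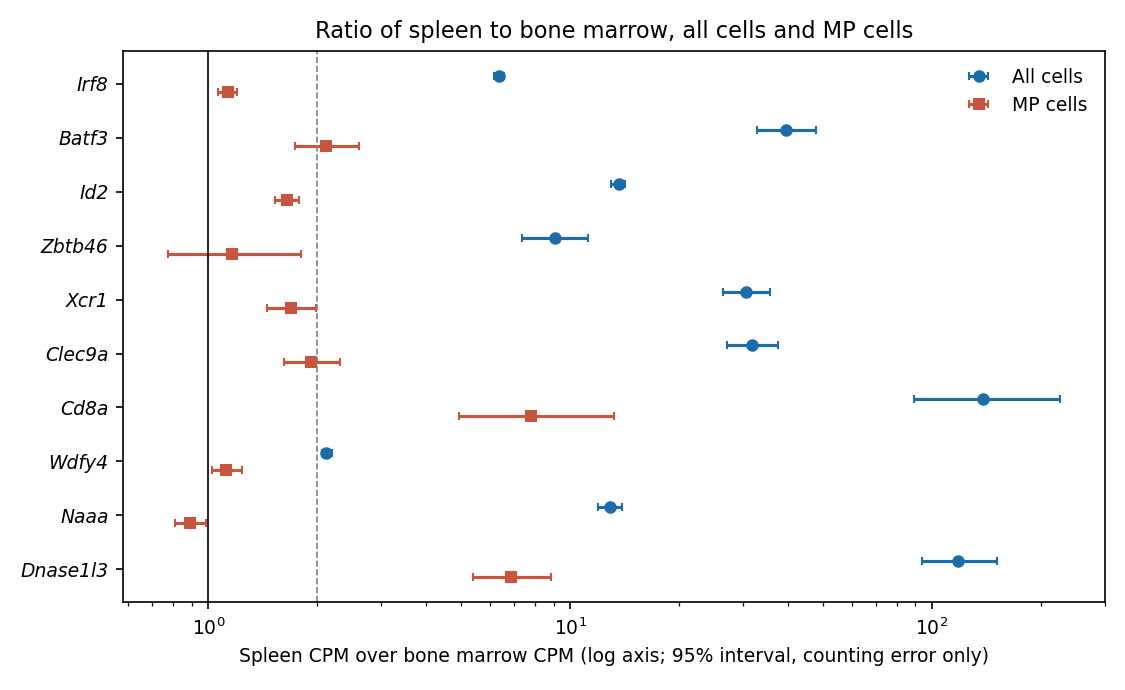
Ratio of spleen CPM to bone marrow CPM for each gene over all cells (circles) and within MP (squares), on a log axis with 95% intervals for counting error only. The solid line marks equal levels and the dashed line a 2-fold difference, and within MP only Cd8a and Dnase1l3 stand clear of the dashed line.

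Levels over summed cells can come from a few cells, so detection was counted after each cell was thinned to 3700 UMIs, which left 1400 spleen MP cells and 104 bone marrow MP cells. Id2 was detected in 95.2% of the spleen MP cells and 71.2% of the bone marrow MP cells, and Irf8 in 92.6% of spleen MP cells and 75% of bone marrow MP cells. Clec9a was detected in 61.6% of spleen MP cells (59.0 to 64.2) and 37.5% of bone marrow MP cells (28.2 to 47.5), and Xcr1 in 59.4% of spleen MP cells (56.8 to 62.0) and 38.5% of bone marrow MP cells (29.1 to 48.5). The intervals of the tissues are apart for these 4 genes. Dnase1l3 showed the widest gap, in 71.6% of spleen MP cells (69.1 to 73.9) and 15.4% of bone marrow MP cells (9.06 to 23.8). Cd8a was detected in 35.5% of spleen MP cells (33.0 to 38.1) and 5.77% of bone marrow MP cells (2.15 to 12.1), and Batf3 in 55.0% and 28.8%.

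For Wdfy4 (80.7% of spleen MP cells and 76.0% of bone marrow MP cells), Naaa (67.0% and 58.7%) and Zbtb46 (10.1% and 8.65%) the intervals overlap. Before thinning the shares were higher in the deeper library: 88.3% of spleen MP cells and 55.1% of bone marrow MP cells had an Xcr1 UMI, at median depths of 10725 and 7394 UMIs. For comparison, 891 spleen MEP cells were thinned to the same depth. A UMI of Xcr1 was in 0.673% of them (6 cells), of Cd8a in 0.786% (7 cells), of Clec9a in 0.898%, of Dnase1l3 in 1.35% and of Irf8 in 3.14%. Wdfy4 was the highest at 4.83%. These MEP cells include 11 with 4 or more members, so the shares are not a measure of background alone. Their median depth before thinning was 36084 UMIs.

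The members were found together in the same cells. After thinning, at least 4 of the 10 genes were detected in 1920 of 5874 spleen cells (32.7%, 31.5 to 33.9), against 71 of 9081 bone marrow cells (0.782%). In MP such cells made up 95.4% of the spleen cluster (1336 of 1400) and 65.4% of the bone marrow cluster (68 of 104). The spleen cells were not confined to MP, which held 69.6% of them, while DCP held 11.5%, HSC-1 11% and HSC-3 4.90%. In DCP they were 221 of 300 spleen cells and 0 of 359 bone marrow cells (interval 0 to 1.02%). In HSC-1 they were 211 of 1323 spleen cells (15.9%, 14.0 to 18.0) and 1 of 4225 bone marrow cells. In HSC-3 they were 94 of 417 spleen cells and 0 of 1228 bone marrow cells.

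The number of members per cell had separate peaks in spleen DCP, HSC-1 and HSC-3. In spleen HSC-1, 1039 cells held 0 or 1 of the genes, 73 cells held 2 or 3, and 211 held 4 or more, with 14 cells at 3 and 33 at 4, on either side of the limit. In spleen DCP, 66 cells held 0 or 1, 13 held 2 or 3 and 221 held 4 or more. In spleen HSC-3, 306 cells held 0 or 1, 17 held 2 or 3 and 94 held 4 or more. In spleen HSC-2 the numbers fell off with no second peak, and 10 of 730 cells held 4 or more.

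**Figure D4:**
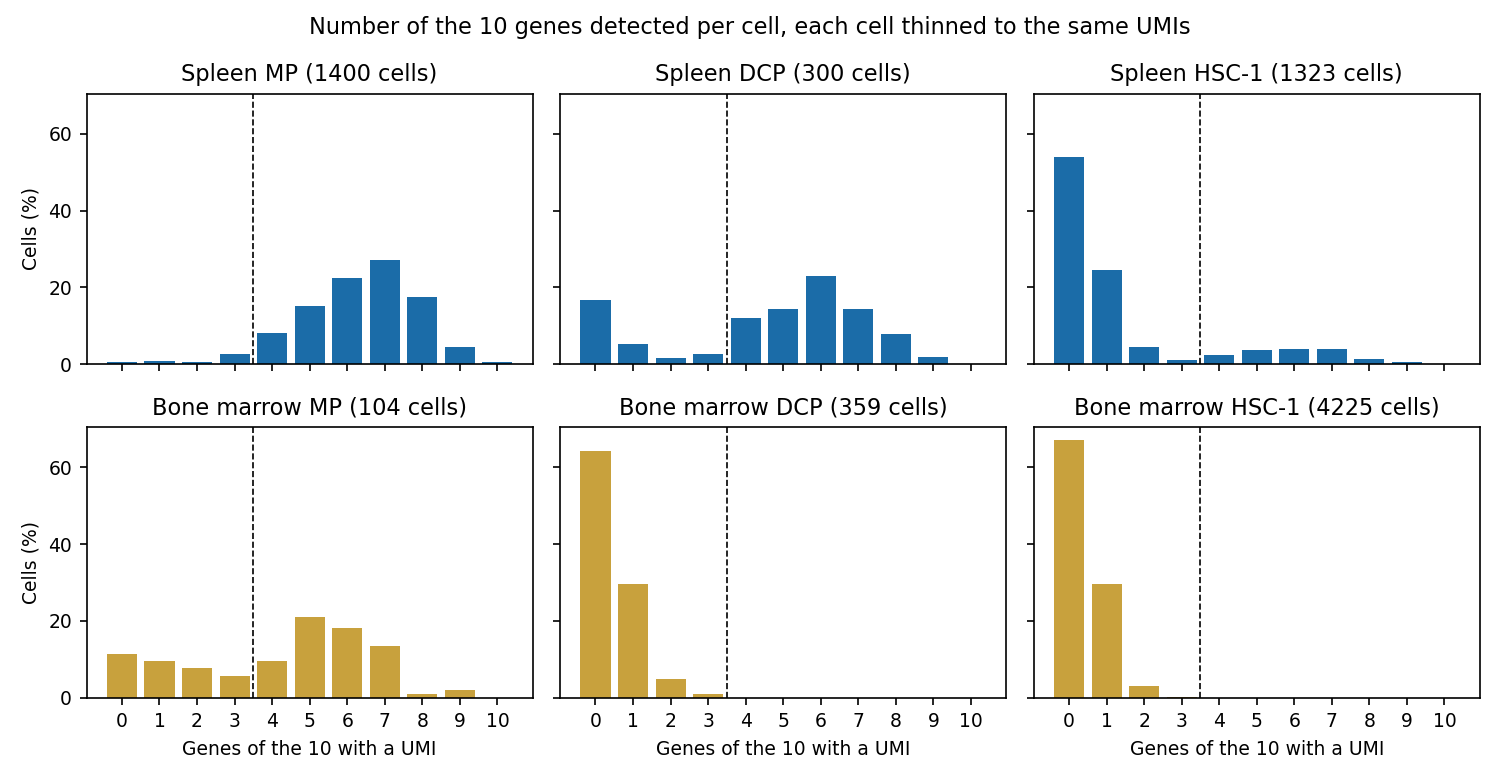
Percent of cells by the number of the 10 genes with a UMI after thinning, in MP, DCP and HSC-1 of the spleen (top) and bone marrow (bottom), with the dashed line at the limit of 4 genes. Spleen DCP and HSC-1 show a peak at 0 and another at 6 or 7, whereas bone marrow DCP and HSC-1 show the peak at 0 alone.

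Genes that had no part in the count of 4 differed between the same cells. In spleen HSC-1, the 20 other cDC1 genes of a list (Cadm1, Itgae, Tlr3, Snx22, Ppt1, Ifi205 and others) summed to 2646 CPM in cells with 4 or more members and to 318 CPM in cells with 0 or 1. Cadm1, an adhesion molecule of cDC1, stood at 150.4 CPM in these cells with 4 or more and 0.785 CPM in those with 0 or 1. H2-Aa, an MHC class II chain, stood at 8306 CPM with 4 or more and 52.5 CPM with 0 or 1. The list summed to 3474 and 512 CPM in spleen MP, to 2368 and 282 CPM in spleen DCP, to 2219 and 211 CPM in spleen HSC-3 and to 2614 and 394 CPM in bone marrow MP, each with 4 or more members first and then with 0 or 1. The authors' table gave a dendritic cell label to 198 of the 211 spleen HSC-1 cells with 4 or more members and to 2 of the 1039 with 0 or 1. The making of these labels is not stated and they describe the same cells, so they are not taken as a separate measure.

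The sort markers were present in these cells. In spleen HSC-1, Kit, the gene of c-Kit, stood at 165 CPM in cells with 4 or more members and 339 CPM in those with 0 or 1, and Ly6a, the gene of Sca1, at 123 and 115 CPM. In spleen MP cells with 4 or more members, Kit stood at 187 CPM and Ly6a at 139.7 CPM. Zeb2, a repressor that is low in cDC1, stood at 26.3 CPM in the HSC-1 cells with 4 or more and 168 CPM in those with 0 or 1. The proliferation gene Mki67 separated the clusters: cells with 4 or more members had 1058 CPM in spleen DCP, 1044 in spleen HSC-3, 255 in spleen HSC-1 and 74.1 in spleen MP. The median depth of the spleen HSC-1 cells with 4 or more members was 10246 UMIs, against 6987 UMIs in the spleen HSC-1 cells with 0 or 1. In the spleen MP cells with 4 or more members it was 10809 UMIs. The HSC-1 cells with 4 or more were thus deeper than those with 0 or 1, and whether some are doublets was not tested by cluster.

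The levels of the genes in cells with 4 or more members varied with the cluster. Xcr1 stood at 303 CPM in such cells of spleen MP, 259 in DCP, 211 in HSC-1 and 204 in HSC-3, and Clec9a at 263, 221, 233 and 175 CPM in these clusters in the same order. Such cells were few in the other clusters, with Xcr1 at 136 CPM in the 10 cells of HSC-2, 117 in the 23 of LP and 82.5 in the 11 of MEP, though at 252 in the 14 of MCP. Since the members chose the cells, these are levels only. Across the tissues, the 68 such bone marrow MP cells differed from the spleen MP ones in Dnase1l3, with 484 CPM in spleen and 104 CPM in bone marrow, and in Cd8a, with 147 CPM in spleen and 27.5 CPM in bone marrow. Irf8 ran the other way, with 1348 CPM in spleen and 1628 CPM in bone marrow, as did Naaa with 415 CPM in spleen and 643 CPM in bone marrow. The count of members at least 2-fold higher in spleen among such MP cells was 2.

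Cd8a is also a T cell gene, so T cell markers were read beside it. In spleen MP cells with 4 or more members, Cd8b1, the other CD8 chain, stood at 3.17 CPM (47 UMIs) and Cd3e at 0.0675 CPM (1 UMI), beside 147 CPM of Cd8a. The 12 T cell markers summed to 29.1 CPM in spleen MP, with Cd3g at 0, and to 13.2 CPM in bone marrow MP, with 9 of the 12 at 0. Over whole libraries they summed to 482 CPM in spleen and 22.2 CPM in bone marrow, and most were at their highest in LP, where Cd8a stood at 5.76 CPM. Leaving out cells with a UMI of a CD3 chain or a constant T cell receptor gene kept all 10 members at least 2-fold higher in spleen. Among these genes Tcrg-C1 was highest in spleen MEP, at 117 CPM, so this setting does not leave out T cells alone. Under it the log2 ratio of Irf8 rose from 2.64 to 3.31 and that of Xcr1 from 4.48 to 5.17.

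Inside spleen MP, pairs of members were detected together about as often as their shares alone would give. Of the 45 pairs, 43 were above the product of the shares, but the median excess was 1.03-fold and the range 0.988 to 1.11, and 0 of 45 reached 1.5-fold. Only 10 of the pairs had shares low enough for a 1.5-fold excess to be possible, so the count of 0 says little about the other pairs. Xcr1 and Clec9a were both detected in 529 of 1400 cells, 37.8% against a product of 36.6%. Spleen HSC-1 stood apart, with 38 of the 38 pairs that had enough expected cells at 1.5-fold or more, a median of 4.38 and a range of 1.86 to 6.63. There Xcr1 and Clec9a were both found in 72 of 1323 cells, 5.61 times the product. In spleen DCP 2 of 44 pairs reached 1.5-fold (median 1.27) and in bone marrow MP 4 of 31 did (median 1.26). Such an excess was possible for 27 pairs in spleen DCP and 10 in bone marrow MP, but for all 38 in spleen HSC-1. The counts are thus not alike between clusters.

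**Figure D5:**
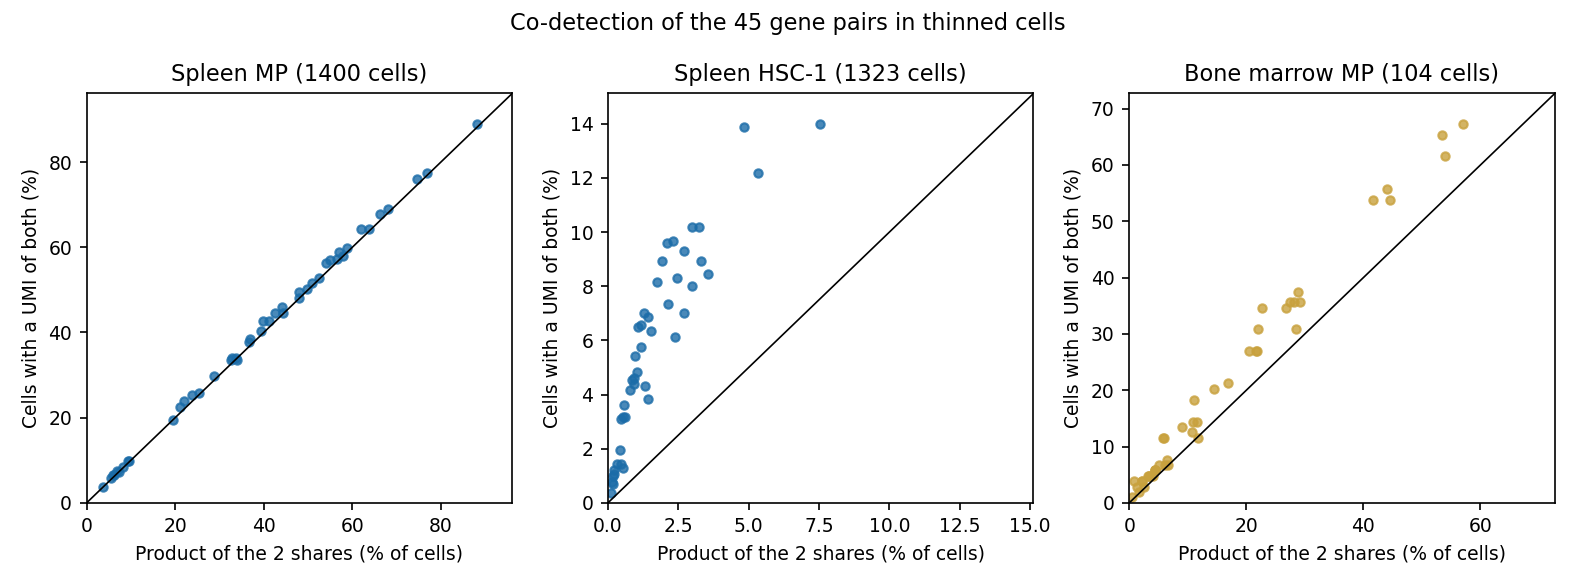
Percent of thinned cells with a UMI of both genes of a pair against the product of their shares, for the 45 pairs in spleen MP, spleen HSC-1 and bone marrow MP, with the line of equality. Points of spleen MP lie along the line, and all points of spleen HSC-1 with enough cells lie above it.

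Spleen MP cells with a UMI of Xcr1 or Clec9a numbered 1166 of 1400 (83.3%, 81.2 to 85.2), of which 529 had both, 303 Xcr1 alone and 334 Clec9a alone. The other 234 cells carried the remaining members as well. Batf3 stood at 233 CPM in cells with Xcr1 or Clec9a and 203 CPM in cells without, a ratio of 1.14 (0.974 to 1.35). Irf8 stood at 1375 CPM with and 953 CPM without (1.44, 1.34 to 1.55), Cd8a at 154 and 94.7 CPM (1.63, 1.29 to 2.07) and Dnase1l3 at 483 and 339.6 CPM (1.42, 1.26 to 1.61). Zbtb46 had the widest ratio, 32.5 CPM with and 16.2 CPM without, at 2.01 (1.16 to 3.77) on 14 UMIs in the cells without, and fell just short of the 2-fold limit on CPM + 1. By that rule 0 of the 8 other members were higher, where 0.464% of 7320 genes were higher and 0.97% lower. With all UMIs in place of thinned cells, 5 of the 8 were higher, between 1357 cells with and 56 shallower cells without.

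Some genes that were not members differed more in summed level between these cells, and those named here are extremes of this same ratio. Over all spleen MP cells before thinning, Ly6d had a UMI in 3.33% and Ccl5 in 9.98%, so their sums can come from few cells. S100a4 stood at 3.25 CPM with and 107 CPM without, Ly6d at 3.71 and 64.7 CPM, and the chemokine gene Ccl5 at 11.8 and 99.3 CPM. On the other side, Zfp366, a zinc finger gene of dendritic cells also called DC-SCRIPT, stood at 109.9 CPM with and 57.8 CPM without. A set of 13 spleen MP cells that the authors' table labels as dendritic cells high in S100a4 had 0 UMIs of Xcr1, Clec9a and Zbtb46 (interval 0 to 37.9 CPM) and 92.5 CPM of Irf8, on 9 UMIs. The 97 spleen MP cells labelled as macrophages high in Plbd1 did not stand apart in this way, with 261 CPM of Xcr1, 279 of Clec9a and 1415 of Irf8, beside 302, 257 and 1324 CPM in the 1268 cells labelled as dendritic cells high in Cst3.

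Other genes of the cDC1 programme, from lists chosen with earlier results of these data known, moved with the members over whole libraries. Of the 20 other cDC1 genes, 14 passed the 10 CPM limit, and 12 of them were at least 2-fold higher in spleen and 0 lower. Of all genes, 4.15% were higher and 6.55% lower. Apart from Ppt1 and Itgb7, the higher genes stood under 10 CPM in bone marrow. For those the limit itself required a higher level in spleen, so the count is a description. Cxcl9, a chemokine that draws CD8-positive T cells, stood at 89.1 CPM in spleen and 0.637 CPM in bone marrow, and Cadm1 at 59.1 and 1.95 CPM. Cd24a and Clnk lay within 2-fold. Inside MP, 5 of 18 measured genes were higher in spleen and 0 lower, where 2.61% of all genes were higher and 14.4% lower. Among the 5 was Cxcl9 with 406 CPM in spleen MP and 37.5 CPM in bone marrow MP, while Tlr3, the receptor for double-stranded RNA, stood at 128 and 154 CPM.

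Regulators of cDC1 development divided differently. Over whole libraries 2 of 17 measured were higher in spleen and 2 lower, against 4.15% and 6.55% of all genes. The higher were Mycl, a MYC family factor of cDC1, at 38.5 CPM in spleen and 1.78 CPM in bone marrow, and Bcl6 at 17.2 and 6.81 CPM. Both stood under 10 CPM in bone marrow, so the 10 CPM limit itself required a higher level in spleen. The count of higher genes is thus a description. Tcf4, the E protein of plasmacytoid dendritic cells, and Cebpa, a myeloid progenitor factor, were the 2 that were lower, at 104 CPM in spleen and 288 CPM in bone marrow for Tcf4 and at 9.87 and 29.3 CPM for Cebpa. For Cebpa, under 10 CPM in spleen, the limit itself required a lower level there. Inside MP 0 of 16 were higher and 4 were lower in spleen, where 2.61% of all genes were higher and 14.4% lower. The 4 were Zeb2 at 9.50 CPM in spleen MP and 104 CPM in bone marrow MP, Tcf4 at 52.9 and 223 CPM, Cebpa at 15.3 and 36.5 CPM and Cebpb at 20.3 and 45.6 CPM. Zeb2 stood under 10 CPM in spleen MP, so for it the limit itself required a lower level there. Markers of other dendritic cells in MP summed to 169 CPM in spleen and 403 CPM in bone marrow for cDC2 and to 363 CPM in spleen and 602 CPM in bone marrow for plasmacytoid cells. In bone marrow MP most of the cDC2 sum was Klf4 (150.1 CPM), Ltb (115) and Notch2 (95.3), and 4 of the 13 markers had 0 UMIs. Most of the plasmacytoid sum there was Tcf4 (223 CPM), Bst2 (123) and Runx2 (123), and Siglech had 1 UMI. Ccr9 ran the other way, at 58.7 CPM in spleen MP and 27.4 in bone marrow MP. The sums thus do not count cells of these types. Neutrophil markers summed to 8.02 CPM in spleen MP and 377 CPM in bone marrow MP, and stem cell markers to 21.4 and 326 CPM. The part of any difference in cell makeup in the MP ratios of the members was not tested.

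The machinery of antigen processing had a median log2 ratio of 0.10 over whole libraries and 0.13 in MP. Of 20 measured genes, 1 was at least 2-fold higher in spleen over whole libraries and 2 were lower, against 4.15% and 6.55% of all genes. The higher one was Rab43, a GTPase that serves cross-presentation in mouse cDC1, at 26.0 CPM in spleen and 9.24 CPM in bone marrow. It stood under 10 CPM in bone marrow, so for it the 10 CPM limit itself required a higher level in spleen. Rab27a, a GTPase of lysosome-related organelles, and the kinase gene Syk were the 2 that were lower, at 22.0 CPM in spleen and 56.6 CPM in bone marrow for Rab27a and at 54.8 and 122 CPM for Syk. Tap1, a subunit of the peptide transporter, stood at 329 CPM in spleen MP and 294 CPM in bone marrow MP, and B2m, the MHC class I light chain, at 1598 and 1293 CPM. In MP 1 of 21 measured genes was at least 2-fold higher in spleen and 2 were lower, against 2.61% and 14.4% of all genes. Cybb, the oxidase subunit that limits antigen breakdown, was 1 of the 2 lower, at 4.72 CPM in spleen MP and 19.3 CPM in bone marrow MP. It passed the 10 CPM limit only through bone marrow MP, which required a lower level in spleen MP.

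Of the receptors for growth factors of dendritic cells and the genes of the sort markers, 0 of 5 measured were 2-fold apart in MP. Of all genes there, 2.61% were higher and 14.4% lower in spleen, so a count of 0 among 5 says little. Flt3, the receptor that drives dendritic cell development, stood at 183 CPM in spleen MP and 262 CPM in bone marrow MP (ratio 0.70, 0.616 to 0.798), and over whole libraries at 87.8 CPM in spleen and 281 CPM in bone marrow. Csf2ra, a GM-CSF receptor chain, stood at 80.5 CPM in spleen MP and 50.7 CPM in bone marrow MP. Kit stood at 189 CPM in spleen MP and 209.9 CPM in bone marrow MP, and Ly6a at 144 and 124 CPM.

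Likeness to each member was measured over the 16 sums of library and cluster. Among 5548 genes that reached 50 CPM in a sum, Clec9a was the gene most like Xcr1, with Pearson's r of 0.9973 on log2(CPM + 1), and Xcr1 was the most like Clec9a. Ifi205, an interferon-induced gene, and Pid1 came next for both, and Pid1 led for Batf3 (0.9975). Cd8a ran most like Bcl2a1a, a survival gene of the BCL2 family (0.9961), and Adam23 (0.9959), while Dnase1l3 ran most like Slamf8 (0.9904). Irf8 ran most like Rab7b (0.9791), Id2 most like Gcsam (0.9799), Naaa most like March1, a ubiquitin ligase of MHC class II (0.9915), and Wdfy4 most like Tep1 (0.9797). Zbtb46 had the weakest likeness, to Mia2 (0.9127), and among members its r was lowest with Wdfy4 (0.48). The 16 points share libraries, depth and the clustering itself, so these values carry no p and describe the clusters.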

How the data were processed

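The deposited count files hold UMI counts per cell for 31053 genes, whole numbers with no normalization, and each tissue has 1 library. The authors sequenced about 27000 reads for each cell and ran Cell Ranger 3.1.0 on the mm10 genome, as the design text has it. The submitters' processing notes list Seurat 3.1.5 and mm9, which conflicts with the design text. The kit version is 3 in the design text and 3.1 in the extract protocol. The deposited cell table gives cluster, labels and scores (ER stress, myeloid, stemness), whose making is not stated, and the authors' integrated matrix was not used because batch-integrated values are not expression.

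Symbols came from GENCODE M21 by Ensembl identifier (31011 matched). Counts were summed per library and cluster and scaled to CPM in Python 3.11.15 (NumPy 2.4.6, SciPy 1.17.1, pandas 2.3.3); intervals are exact Poisson, Clopper-Pearson for shares, at 95%. Folds used CPM + 1 and, for the background, only genes whose mean reached 10 CPM. A count of 0 was read as 3 UMIs. Thinning kept 3700 UMIs per cell, the 10th percentile of bone marrow cells rounded down, and left out 672 spleen and 1007 bone marrow cells. A pair had to be expected in at least 5 cells. Scrublet (scanpy 1.11.5) marked 184 spleen cells and 1 bone marrow cell, 0.00991%, so it did not work in bone marrow and was used only as an alternative.

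The members and gene lists were chosen with earlier results of these data known. Named genes were the 10 members, of each list the 2 highest and 2 lowest or genes set beside a member, the 3 genes most like each member, and the leading genes of the split by Xcr1 and Clec9a; Mki67 and the labelled sets of cells were picked after their values were seen. Ifi30 was not matched in the files by symbol, so 21 of the 22 antigen-processing genes were used.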

Additional observations from a re-analysis of the deposited data

Results flagged for a closer look

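For Wdfy4 and Naaa the ratio of spleen to bone marrow ran in opposite directions in different clusters, with intervals that leave out 1. Irf8 also stood below 1 in LP, at 0.884, with an interval that reaches 1.00. Wdfy4 was 4.43-fold higher in spleen in DCP, but its ratio was 0.827 in LP (0.714 to 0.957) and 0.442 in MEP (0.361 to 0.545). In LP it stood at 62.5 CPM in spleen and 75.6 CPM in bone marrow, and in MEP at 13.1 CPM in spleen and 29.5 CPM in bone marrow. Naaa had a ratio of 0.891 in MP (0.809 to 0.983), against 159 in DCP, where the bone marrow value rests on 8 UMIs. The intervals cover counting error only, and with 1 library per tissue the difference between clusters was not tested.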

How the results depend on the processing

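No paired analysis was possible because each tissue has 1 library, and for the same reason no replicate could be left out. All 10 members stayed at least 2-fold higher in spleen over whole libraries under TMM scaling, centring on the median gene, pseudocounts of 0.1 and 5, thinning, weighting each cell alike, and leaving out cells that Scrublet marks or cells with T cell receptor complex UMIs. With the clusters weighted alike in both libraries the count was 6: Irf8 had a log2 ratio of 0.88, Zbtb46 0.82, Wdfy4 0.49 and Naaa 0.90. Without the cells holding 4 or more members, a setting added after seeing the data, the count was 8, and Irf8 turned to -0.33 and Wdfy4 to -0.79. Of 100 log2 ratios of members under the alternatives, 98 were above 0.

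In MP, thinning left 2 members at least 2-fold higher, with Batf3 at 0.96, and the cells holding 4 or more members also gave 2. When the split by Xcr1 or Clec9a used all UMIs in place of thinned cells, 5 other members were at least 2-fold higher, where the thinned split gave 0. That split leaves 56 cells without either gene, at a median of 7218 UMIs, against 10791 in cells with one of them. No pair in spleen MP reached 1.5-fold with all UMIs, thinning to 2000 UMIs or leaving out cells that Scrublet marks, but most pairs are detected too often for such an excess to be possible. Cd8a, with 20 UMIs in the bone marrow library, Dnase1l3, with 73, and Zbtb46, with 100, are the members with the fewest counts there.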

Other observations

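The study scored ER stress per cell. Of 12 ER stress genes measured in MP, 1 was at least 2-fold higher in spleen and 2 were lower. Of all genes there, 2.61% were higher and 14.4% lower by that much. The median log2 ratio of the 12 was -0.22, against -0.25 over all genes. Sdf2l1, a chaperone partner of the endoplasmic reticulum, was the higher one (50.0 CPM in spleen and 24.3 CPM in bone marrow). Ddit3, the gene of CHOP, was lower (9.18 CPM in spleen and 35.5 CPM in bone marrow), as was the co-chaperone gene Dnajb9 (23.8 and 49.7 CPM). For Ddit3, under 10 CPM in spleen MP, the limit of a mean of 10 CPM itself required a lower level there. Xbp1, the factor that cDC1 need for their secretory compartment, stood at 68.5 CPM in spleen MP and 80.1 CPM in bone marrow MP (ratio 0.855, 0.68 to 1.09). The authors' ER stress score had a median of 0.138 in spleen MP (quartiles 0.110 and 0.164) and 0.091 in bone marrow MP (quartiles 0.070 and 0.113). Their myeloid score had a median of 0.421 in spleen MP and 0.239 in bone marrow MP.

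Genes of T cell priming were thinly counted. Over whole libraries 3 of 10 passed the 10 CPM limit, and Icosl (17.8 CPM in spleen and 5.57 CPM in bone marrow) and Cd86 (29.8 and 11.3 CPM) were at least 2-fold higher in spleen. Of all genes, 4.15% were. Icosl stood under 10 CPM in bone marrow, so for it the limit itself required a higher level in spleen. In MP 6 of the priming genes were measured, and 3 were at least 2-fold higher in spleen, against 2.61% of all genes. These were Cd83 (50.4 CPM in spleen MP and 22.3 CPM in bone marrow MP), Ccl5 (22.9 and 10.1 CPM) and Cd40 (22.0 CPM in spleen MP and 3.04 CPM, on 3 UMIs, in bone marrow MP). Cd40 passed the limit only through spleen MP, which required a higher level there. The counts of priming genes are thus descriptions. Ccr7, the receptor that guides migratory dendritic cells to lymph nodes, stood at 2.65 CPM in spleen MP and 3.04 CPM in bone marrow MP. In spleen MP, cells with Xcr1 or Clec9a had 50.3 CPM of the maturation gene Cd83 and cells without had 79.7 CPM. Mast cell and basophil markers summed to 121 CPM in spleen MP and 8.11 CPM in bone marrow MP, and their part in the MP values was not tested.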
